A study of Rattus norvegicus with 6 samples.

Results

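The genes described here are 10 genes of the amino acid and ATF4 stress response: the transcription factor genes Atf4, Atf5 and Ddit3, the stress response regulators Ddit4, Trib3, Sesn2 and Chac1, and the amino acid synthesis enzymes Asns, Psat1 and Phgdh. They were taken as a fixed list of symbols, and each was represented by its probe set with the highest mean over all arrays. Of the 10 genes, 9 were measured among the 13355 genes tested. Sesn2, a sestrin that holds back the growth kinase complex mTORC1 when amino acids are scarce, had no probe set listed under its symbol in the annotation used and was not analysed here. The arrays compared fibrinogen-treated (3 arrays) with unstimulated control (3 arrays) rat oligodendrocyte progenitor cells (OPCs) in culture, the dividing glia that give rise to myelin-making oligodendrocytes. Per the labels' protocols, OPCs were isolated from neonatal rats (postnatal day 1 to 2) and recovered for 2 days in medium with PDGF and NT3. The treated cells then received fibrinogen, the clotting protein of blood plasma, for 48 h in differentiation medium. Control titles carry the same 48 h, but the medium of the controls is not stated, nor are strain, sex or genotype for either group. The labels do not say whether replicates were separate cultures, so p-values measure only the spread between these arrays, which may be technical.

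ATF4 sits at the centre of the integrated stress response. When amino acids run short, when proteins misfold in the endoplasmic reticulum or when other stresses strike, kinases phosphorylate the translation factor eIF2, general protein synthesis slows, and ATF4 protein is made more efficiently from its mRNA. ATF4 then binds C/EBP-ATF elements and induces genes of amino acid synthesis, uptake and tRNA charging, together with Chac1 and the feedback regulator Trib3. Oligodendrocytes make large amounts of membrane protein, and this response is well known in disorders of myelin. The mRNA level of Atf4 is therefore only one of the layers at which the pathway is controlled, and these arrays read mRNA alone.

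Promoter windows of RefSeq (build GRCr8, 250 bases before to 50 after an annotated start site) were available for all 10 genes. For Asns, Psat1 and Atf5 the window searched lay inside the gene and not at its outer end. The sequence at the outer end of these genes was therefore not searched. Of the 10 windows 2, those of Chac1 and Trib3, held the C/EBP-ATF element TGATGNAA. These stretches are shown because the element is the sequence through which ATF4 acts, and because neither gene passed the test below. Both matches lie on the strand opposite to the gene, so the capitals, which mark the match, read as its reverse complement. The Chac1 stretch lies at chr3:126795948-126795987 on the plus strand, and its match begins at position -167 relative to the start site. The Trib3 stretch lies at chr3:161275531-161275570 on the minus strand, and its match begins at position -21.
Chac1: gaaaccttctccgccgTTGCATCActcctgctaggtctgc
Trib3: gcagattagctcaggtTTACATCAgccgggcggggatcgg
The same element, searched on both strands, was found in 2.64% of the 10988 windows of genes tested. Neither the cyclic AMP response element core TGACGTCA, found in 2.60% of those windows, nor the ER stress element, found in 0.127% of them, had a match in the 10 windows. A match is a string of letters, not a measured binding site.

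Of the 9 measured genes, 1 fell with fibrinogen, none rose and 8 did not pass the test, at an adjusted p of 0.05 in limma. Ddit4 was the gene that fell. Over all genes, 7.16% passed the same threshold in either direction (4.16% higher and 3.00% lower), so 1 of 9 lies near the background share. With each array centred on its median, 434 genes were higher and 516 lower, against 555 and 401 without centring, and the members' count was the same. At an unadjusted p of 0.05, 2 of the 9 genes passed (Ddit4 and Asns), against 21.1% of all genes. The median log2 fold change of the 9 genes was 0.03, against 0.003 for all genes, and the median of its absolute size was 0.13 for the 9 genes and 0.12 for all genes. The mean log2 expression of the 9 genes was 7.79 ± 0.04 in fibrinogen and 7.80 ± 0.03 in control arrays (SD, n = 3 each). With Ddit4, the gene that fell, left out, the mean ran from 7.7675 to 7.846 on fibrinogen arrays. On control arrays it then ran from 7.706 to 7.765. Ddit4 was left out because it fell, which by itself raises the fibrinogen mean relative to control. Array medians were also higher on fibrinogen arrays (5.84) than on control arrays (5.78 to 5.80). Asns, with a log2 fold change of 0.43, stayed in the mean. A shared rise of the remaining genes can therefore not be read from these ranges. Levels on these arrays belong to a probe set and were not compared between genes.

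**Figure D1:**
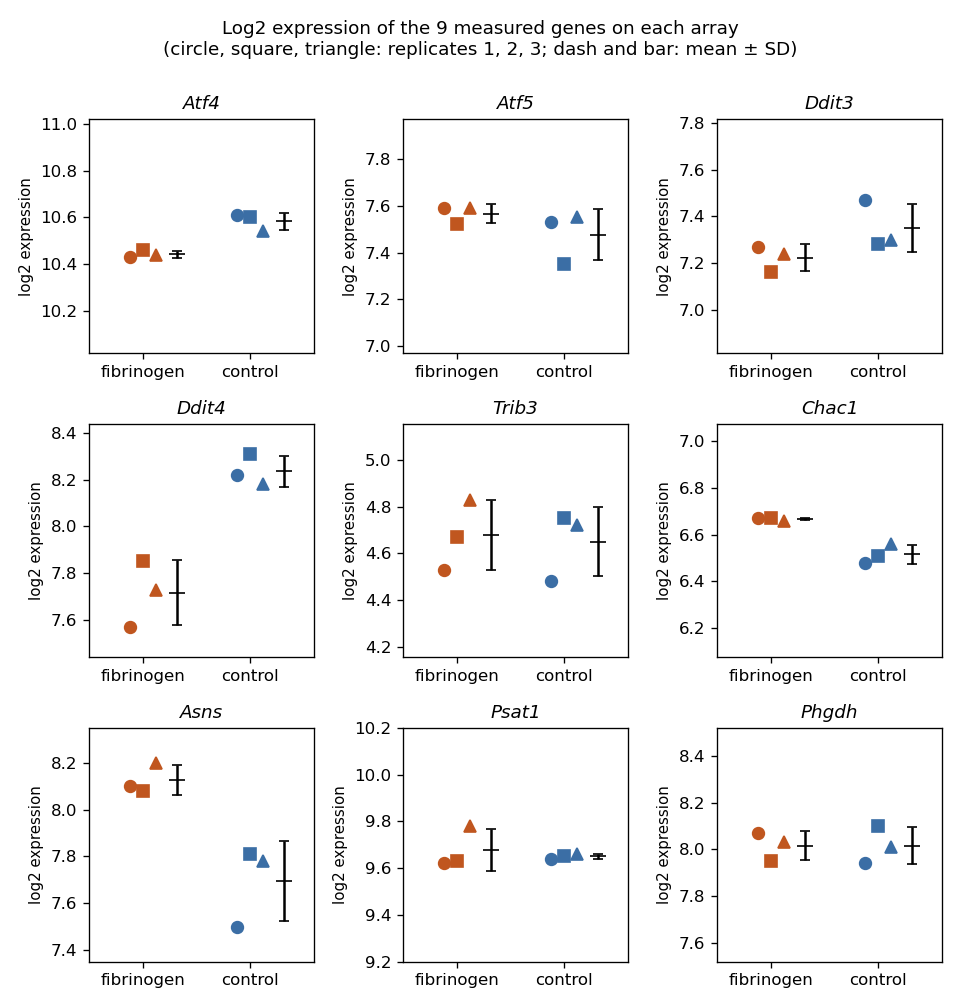
Log2 expression (vertical axis, each panel spanning 1 log2 unit) of the 9 measured genes on each array, with fibrinogen arrays in orange and control arrays in blue, and the mean ± SD beside them. Ddit4 lies lower on all 3 fibrinogen arrays (7.57 to 7.85) than on the control arrays (8.18 to 8.31), Asns lies higher (8.08 to 8.20 against 7.50 to 7.81), and Psat1, Phgdh, Trib3 and Atf5 overlap.

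Among the transcription factor genes, none passed the test. Atf4 (probe set 10897760), the central activator of the response, had log2 expression of 10.43, 10.46 and 10.44 on fibrinogen arrays, against 10.61, 10.60 and 10.54 on control arrays. The groups did not overlap, although the gap between them was 0.08 log2 units. The log2 fold change was -0.14 (SE 0.07, 95% interval -0.30 to 0.02, adjusted p = 0.306). With a variance prior that follows brightness, the same difference passed (adjusted p = 0.0388). Over its 15 alternatives the adjusted p of Atf4 ran from 0.0388 to 0.489.

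Ddit3 (10895861), which encodes CHOP, a C/EBP family factor induced by ATF4 under prolonged ER stress, was at 7.27, 7.16 and 7.24 on fibrinogen arrays, against 7.47, 7.28 and 7.30 on control arrays. The groups were separated by 0.01 log2 units, and control 1 was the highest array. The change of -0.13 (SE 0.08, 95% interval -0.32 to 0.07) did not pass (adjusted p = 0.456). Atf5 (10721480), a related factor that is also translated under stress and that acts in the mitochondrial stress response, was at 7.59, 7.52 and 7.59 with fibrinogen, against 7.53, 7.35 and 7.55 in control. Its groups overlapped, and its log2 fold change was 0.09 (SE 0.08, 95% interval -0.11 to 0.29, adjusted p = 0.608).

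Ddit4 (10832920) encodes REDD1, a protein that restrains mTORC1 and is induced by ATF4 and also by hypoxia, glucocorticoids and p53. It was at 7.57, 7.85 and 7.73 on fibrinogen arrays, against 8.22, 8.31 and 8.18 on control arrays. All 3 fibrinogen arrays lay below all control arrays, with a gap of 0.33 log2 units, and the fibrinogen arrays spread over 0.28 units. Ddit4 fell 1.43-fold (log2 fold change -0.52, SE 0.09, 95% interval -0.74 to -0.30, adjusted p = 0.0217). A change at least as large in either direction was seen for 4.98% of all genes, and a fall at least as large for 2.04%. The call held without fibrinogen 2 (adjusted p = 0.0393) and was lost without fibrinogen 1 (0.0724), fibrinogen 3 (0.0789), control 1 (0.0560), control 2 (0.0625) or control 3 (0.0585), while the log2 fold change stayed between -0.59 and -0.45. It was also lost with the unmoderated test, in which each gene keeps its own variance (adjusted p = 0.0748).

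In bulk RNA, fewer cells of a type and less RNA per cell cannot be told apart. Marker genes of several cell types moved with the groups. The called shares were 62.5% for mature oligodendrocyte, 57.1% for progenitor, 44.4% for astrocyte, 20% for neuron and 9.09% for microglia markers. Over all genes 7.16% were called, and 21.1% passed at an unadjusted p of 0.05. Of 8 measured mature oligodendrocyte markers 5 fell and none rose, and their mean log2 level ran from 8.78 to 8.86 on fibrinogen arrays, against 9.21 to 9.29 on control arrays. Of 7 progenitor markers 4 rose and none fell (10.26 to 10.30 on fibrinogen arrays, 9.89 to 9.96 on control arrays). Their changes were 5 positive and 2 negative, with a median log2 fold change of 0.46. Of 9 astrocyte markers 4 rose and none fell (8.0 to 8.04, against 7.70 to 7.79). The astrocyte marker changes were split, 5 positive and 4 negative, with a median of 0.04. Of 11 microglia markers 1 fell and none rose (4.62 to 4.71, against 4.73 to 4.89), with 2 of them above the median probe in control, and of 10 neuron markers 1 rose and 1 fell (6.51 to 6.60, against 6.67 to 6.80). None of 7 fibroblast and pericyte markers (4.59 to 4.67, against 4.67 to 4.83) and 4 endothelial markers (3.88 to 4.14, against 3.86 to 4.24) passed in limma, and 1 and 0 of them passed at an unadjusted p of 0.05. All 7 measured progenitor markers lay above the median probe in control, but so did 7 of 8 mature oligodendrocyte and 8 of 9 astrocyte markers, so this check of the labelled cell type does not set progenitors apart. The part of these markers in the values of Ddit4 and of the genes below was not tested.

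The stress response regulators Trib3 and Chac1 did not pass. Trib3 (10850775), a pseudokinase that ATF4 induces and that in turn restrains ATF4, was at 4.53, 4.67 and 4.83 on fibrinogen arrays, against 4.48, 4.75 and 4.72 on control arrays. Its groups overlapped, and its log2 fold change was 0.03 (SE 0.11, 95% interval -0.24 to 0.29, adjusted p = 0.924), with the sign turning under some settings, among them centring on array medians (-0.02). Trib3 was also the only measured gene of the 9 whose control mean lay below the array medians of 5.78 to 5.84. Chac1 (10838823), which degrades glutathione and is a target of ATF4 and CHOP, was at 6.67, 6.67 and 6.66 with fibrinogen, against 6.48, 6.51 and 6.56 in control. The fibrinogen arrays lay together and above every control array, by 0.10 log2 units. The change of 0.15 (SE 0.07, 95% interval -0.01 to 0.31) did not pass (adjusted p = 0.271).

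The amino acid synthesis enzymes did not pass either, though Asns came close. Asns (10860951), asparagine synthetase, is a classical target of ATF4 and makes asparagine from aspartate and glutamine. It was at 8.10, 8.08 and 8.20 on fibrinogen arrays, against 7.50, 7.81 and 7.78 on control arrays. All fibrinogen arrays lay above all control arrays, with control 1 well below the other controls. The log2 fold change was 0.43, or 1.35-fold (SE 0.10, 95% interval 0.19 to 0.67, adjusted p = 0.0518). Without control 1 it was 0.33 (adjusted p = 0.0833), and the adjusted p ran from 0.00684 to 0.164 over its 15 alternatives, of which 4 put it past the threshold.

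Psat1 (10729096) and Phgdh (10825328) catalyse consecutive steps of serine synthesis from a glycolytic intermediate. Psat1 was at 9.62, 9.63 and 9.78 on fibrinogen arrays, against 9.64, 9.65 and 9.66 on control arrays, and fibrinogen 3 alone stood above the controls. Its log2 fold change was 0.03 (SE 0.08, 95% interval -0.15 to 0.21, adjusted p = 0.892), and the sign turned to -0.02 with centring on array medians. A dimmer Psat1 probe set (10823611), at 5.54 ± 0.32 in fibrinogen and 5.58 ± 0.16 in control (SD, n = 3 each), did not pass either. Phgdh was at 8.07, 7.95 and 8.03 with fibrinogen, against 7.94, 8.10 and 8.01 in control. Both group means were 8.02, so the log2 fold change was 0 (SE 0.08, 95% interval -0.19 to 0.19).

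For 7 of the 9 genes, the 95% interval of the change lay within 1.5-fold in either direction, and Ddit4 and Asns were the exceptions. The groups did not overlap for 5 of the 9 genes, 3 of them lower with fibrinogen (Ddit4, Atf4, Ddit3) and 2 higher (Asns, Chac1). Over all genes 27.0% did not overlap. The signs were mixed: 5 log2 fold changes were positive, 3 negative and 1 was 0.

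**Figure D2:**
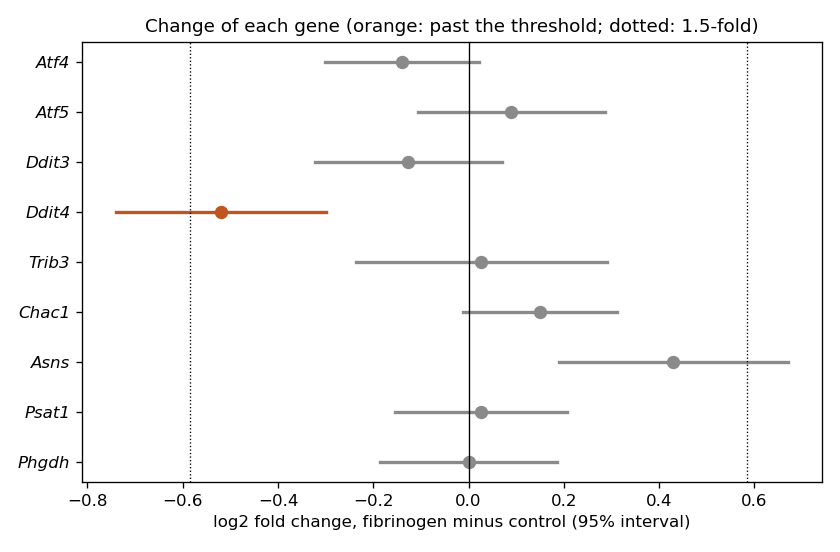
Log2 fold change of each measured gene, fibrinogen minus control (horizontal axis), with its 95% interval; orange marks the gene past an adjusted p of 0.05 and dotted lines mark 1.5-fold. Ddit4 lies at -0.52 and Asns at 0.43, and the intervals of the other 7 genes stay between the dotted lines.

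The genes whose arrays most resembled those of Ddit4, by the root mean square difference of gene-centred log2 values over the 6 arrays, were Cdkn1c (0.0398), an inhibitor of cyclin-dependent kinases, Dstyk (0.0403), a protein kinase gene, and Lgals8 (0.0450), which encodes galectin 8. Their log2 fold changes were -0.59, -0.55 and -0.46, all past the threshold. No gene of the list rose, so the same measure was taken for Asns, which had the smallest p among the positive changes. Its closest genes were Smc2 (0.0254), a condensin subunit, Lrrc40 (0.0314) and Mrps16 (0.0345), a mitochondrial ribosome protein, with log2 fold changes of 0.39, 0.42 and 0.43, of which that of Mrps16 passed (adjusted p = 0.0311). In both cases the likeness includes the difference between groups itself.

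The wider pathway was read through further lists of genes, which were chosen with earlier results of these data known. The shares of called genes in these lists were open to that choice and were not tested. Amino acid transporters held the highest share of changed genes among the 12 lists: 4 of 15 rose, 2 fell and 9 did not pass. This is 40%, against 7.16% of all genes, and the median log2 fold change was 0.20. Slc6a9, the glycine transporter GlyT1, was at 8.71, 8.53 and 8.48 on fibrinogen arrays, against 7.76, 7.68 and 7.66 on control arrays, and rose 1.83-fold (SE 0.09 on the log2 scale, adjusted p = 0.00314). Slc7a5, the LAT1 transporter of large neutral amino acids, was at 9.40, 9.39 and 9.33, against 8.61, 8.76 and 8.65, and rose 1.62-fold (adjusted p = 0.00392). For both genes every fibrinogen array lay above every control array. The count of called transporters was 3 with the unmoderated test and 3 to 6 with 1 array left out.

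The transporters that fell were Slc7a11 and Slc38a2. Slc7a11, the cystine-glutamate exchanger xCT, was at 6.07, 6.0 and 6.23 on fibrinogen arrays, against 7.09, 6.76 and 6.80 on control arrays, and fell 1.72-fold (adjusted p = 0.00973). Slc38a2, the SNAT2 transporter that is induced when amino acids run short, was at 10.10, 9.99 and 10.11, against 10.62, 10.58 and 10.56, and fell 1.43-fold (adjusted p = 0.00874). Neither gene's groups overlapped. Slc3a2, the heavy chain that LAT1 and xCT share, and Slc38a3, a glutamine transporter, were chosen after their values were seen and rose 1.41-fold and 1.69-fold (adjusted p = 0.0189 and 0.0126). Slc7a11 missed the threshold in limma when fibrinogen 1 was left out (adjusted p = 0.0504) or when variances were not moderated (0.0647). That of Slc38a3 was lost without fibrinogen 1 (0.0573), fibrinogen 3 (0.0554) or control 3 (0.0514) and with unmoderated variances (0.0772), and that of Slc3a2 without fibrinogen 1 (0.0770), fibrinogen 3 (0.0779), control 1 (0.0527) or control 3 (0.0683) and with unmoderated variances (0.0596).

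**Figure D3:**
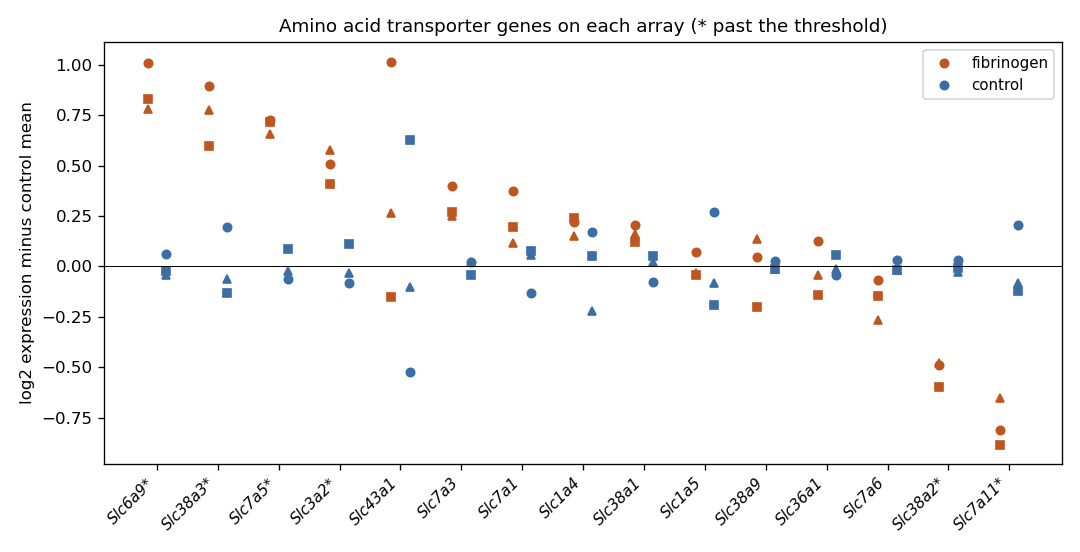
Log2 expression of the 15 amino acid transporter genes on each array, minus the gene's control mean (vertical axis), with fibrinogen arrays in orange on the left and control arrays in blue on the right of each gene. Circles, squares and triangles are replicates 1, 2 and 3, asterisks mark the 6 genes past the threshold, and the arrays of Slc6a9 at the left end and Slc7a11 at the right end separate in opposite directions.

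Enzymes of amino acid metabolism around Asns, Psat1 and Phgdh came in 2 lists. Of 12 measured serine, glycine and one-carbon enzymes, Tyms (thymidylate synthase, which also serves DNA replication) rose 1.30-fold and 11 did not pass, although 11 of 12 changes were positive (median log2 fold change 0.17). This is 8.33% called, against 7.16% of all genes. Leaving out any single array ended the call of Tyms (adjusted p = 0.0521 to 0.0969). Of 15 other amino acid enzymes, 1 rose, 1 fell and 13 did not pass, or 13.3% called. Pycr1, which makes proline, and Shmt1, which interconverts serine and glycine, were named after their values were seen: their groups did not overlap, and their log2 fold changes of 0.72 and 0.45 did not pass (adjusted p = 0.0603 and 0.0889). Gpt2, the mitochondrial alanine aminotransferase, was at 7.84, 7.66 and 7.82 on fibrinogen arrays, against 7.02, 7.20 and 7.16 on control arrays, and rose 1.57-fold (adjusted p = 0.00771). Got1, the cytosolic aspartate aminotransferase, was at 8.36, 8.37 and 8.49, against 8.96, 8.93 and 8.71, and fell 1.38-fold (adjusted p = 0.0317), a call that held only without control 3 (0.0342) among the 6 settings with 1 array left out (highest adjusted p = 0.115). None of 19 cytosolic aminoacyl-tRNA synthetases, which load amino acids onto tRNAs, passed in limma, and 2 did at an unadjusted p of 0.05. Sars1, for serine, came closest (log2 fold change 0.32, adjusted p = 0.0622), followed by Mars1, for methionine (0.19, adjusted p = 0.181). Sars1 passed under 4 of its 15 alternatives, among them the variance prior that follows brightness (adjusted p = 0.00299).

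Partners and other targets of ATF4 moved both ways: of 18 measured, 2 rose, 2 fell and 14 did not pass (median log2 fold change -0.06). This is 22.2% called, against 7.16% of all genes, and 9 of 18 passed at an unadjusted p of 0.05, against 21.1% of all genes. Gadd45a, a growth arrest and stress sensor gene, was at 6.92, 7.10 and 7.06 on fibrinogen arrays, against 8.05, 8.0 and 8.01 on control arrays, and fell 1.99-fold (SE 0.08 on the log2 scale, adjusted p = 0.00166). Atf3, a repressor of the same factor family, was at 6.24, 6.09 and 6.20, against 6.87, 6.80 and 6.74 (adjusted p = 0.00564). It fell 1.54-fold, and for both genes every fibrinogen array lay below every control array. With each array centred on its median, 1 gene of the list rose and 3 fell. Txnip, a thioredoxin-binding protein, rose 1.57-fold (adjusted p = 0.0138), and its call was lost without fibrinogen 1 (0.0623), fibrinogen 2 (0.0616) or control 3 (0.0516). Cebpb, a dimer partner of ATF4, rose 1.35-fold (adjusted p = 0.0425), a call lost without any one array (0.0571 to 0.139) and with each array centred on its median (0.0574).

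Upstream of ATF4, 1 of 15 genes for eIF2 kinases, phosphatases and exchange factors fell and 14 did not pass, which is 6.67%, near the 7.16% of all genes. Eif2ak4, which encodes GCN2, the kinase that senses uncharged tRNA, was at 6.48, 6.4 and 6.47 on fibrinogen arrays, against 6.94, 7.13 and 6.84 on control arrays, and fell 1.43-fold (adjusted p = 0.0214). Its call held without control 2 or control 3 and was lost without any other array (highest adjusted p = 0.0840, without fibrinogen 2). None of 20 genes of the endoplasmic reticulum unfolded protein response passed in limma, and 3 did at an unadjusted p of 0.05. The 2 with the smallest p were Derl3, of ER-associated degradation, and Creld2, a secreted ER stress protein, with log2 fold changes of 0.37 and 0.29 (adjusted p = 0.161 and 0.199).

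Of 18 genes of mTORC1 and its amino acid sensing and growth control branches, 1 rose, 1 fell and 16 did not pass. The called share was 11.1%, against 7.16% of all genes. Only 3 of the 18 passed at an unadjusted p of 0.05, against 21.1% of all genes. Ddit4 restrains mTORC1 through the TSC complex, not through the amino acid sensors. Castor2, a paralog of an arginine sensor, rose 1.31-fold (adjusted p = 0.0390), and Flcn (folliculin), which activates Rag GTPases, fell 1.25-fold (adjusted p = 0.0410). Leaving out any single array ended both calls (0.0619 to 0.125 for Castor2, 0.0793 to 0.139 for Flcn), and centring the arrays ended that of Castor2 (0.0592). Among 4 measured paralogs of the listed genes, Sesn3, a sestrin like the unmeasured Sesn2, was at 8.59, 8.60 and 8.62 on fibrinogen arrays, against 9.02, 9.19 and 9.09 on control arrays. It fell 1.41-fold (adjusted p = 0.0118), a call lost without fibrinogen 1 (0.0563) or fibrinogen 2 (0.0540). Sesn3 was the 1 paralog called of 4, or 25%, against 7.16% of all genes. Trib2 and Trib1 had log2 fold changes of 0.39 and 0.46, Sesn1 was at -0.23, and none of these passed (these 3 were named after their values were seen).

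**Figure D4:**
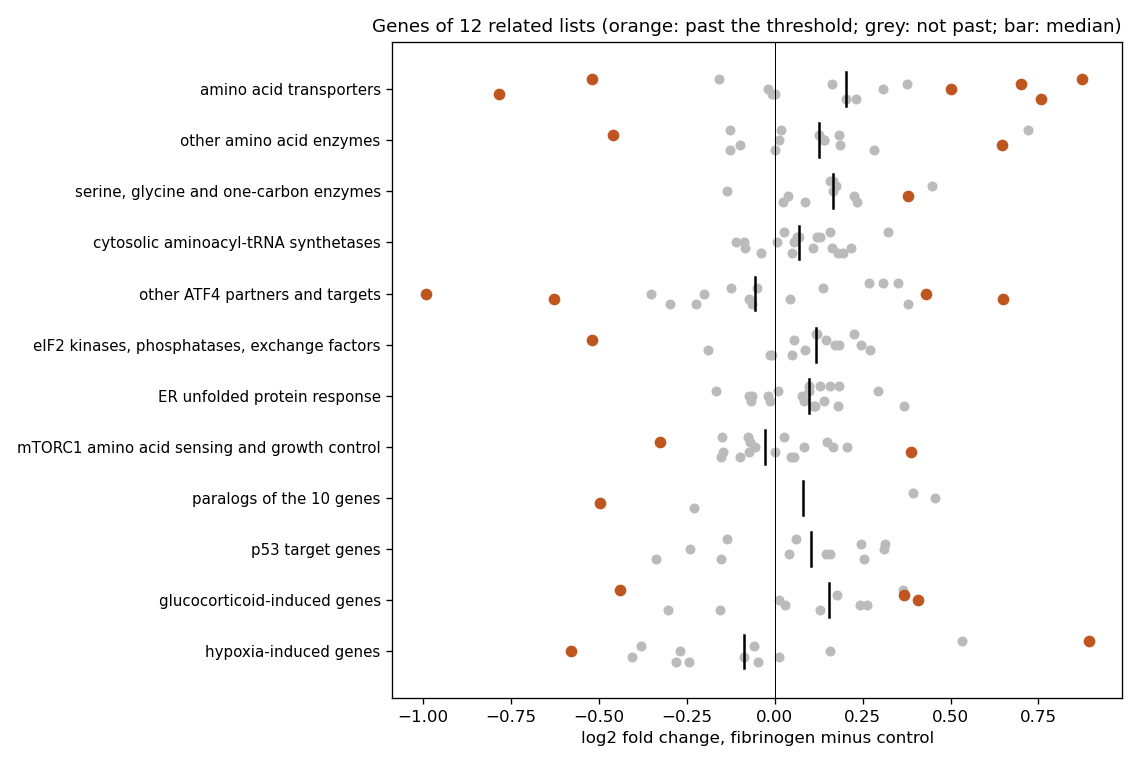
Log2 fold change, fibrinogen minus control (horizontal axis), of each measured gene in 12 related lists, with genes past an adjusted p of 0.05 in orange, other genes in grey and the list median as a bar; vertical offsets within a row carry no meaning. Amino acid transporters hold 6 orange points on both sides of 0, whereas the tRNA synthetase, unfolded protein response and p53 rows hold none. Gadd45a, also a p53 target, lies in the row of other ATF4 partners and targets.

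The C/EBP-ATF element is read from sequence alone, but the lists searched for it were chosen with earlier results of these data known. Some of these genes were also listed because they are known ATF4 targets, so their share with the element is no independent result. Of 150 measured genes of the lists with a promoter window (the members included), 21 held the element, or 14%. Among the windows of all genes tested, 2.64% held it. Of these 21 listed genes 1 fell and none rose in limma. At an unadjusted p of 0.05, 6 of the 21 passed (5 of them positive), against 21.1% of all genes. Their changes were positive for 15 genes, and their median log2 fold change was 0.16. That of the 173 measured genes of the pathway lists, members left out, was 0.08. The gene that fell was Got1, shown because it is the changed gene among them. Its stretch lies at chr1:252330015-252330054 on the minus strand, its match is on the opposite strand to the gene, and the match begins at position -167.
Got1: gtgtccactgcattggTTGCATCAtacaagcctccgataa
Over all tested genes, 290 windows held the element. Of the genes with it 12 rose and 12 fell, which is 8.28%. Their median log2 fold change was -0.02, and 44.5% of their changes were positive. Of the 10698 genes without it 7.16% passed, with a median of 0.003 and 50.3% of changes positive. The share among genes with the element is thus near that of the rest.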

How the data were processed

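The deposited file holds the authors' log2 expression values, 1 column per array. The submitters' processing notes name RMA, a log2 array summary, and limma. Versions, genome build and further steps are not given in the sources used here. Values on all 6 arrays were present for 23631 of 26312 probes. Array medians lay between 5.78 and 5.84. Of the valued probes, 14083 had 1 gene symbol in the platform annotation, and the probe with the highest mean stood for each of 13355 genes. Fibrinogen minus control was fitted with lmFit and eBayes of limma 3.58.1 under R 4.3.3, without covariates and two-sided, with Benjamini-Hochberg adjusted p over all genes. The fit was tested on simulated data. The number of arrays limits precision (median SE 0.104). The members and lists were chosen with earlier results of these data known. Named were all members, up to 4 called genes per list (or the 2 with the smallest p), and the 3 genes nearest Ddit4 and Asns (used because no member rose); 12 pathway and 7 marker lists were used. Where a gene had several promoter windows, the first listed was searched. Alternatives were the variance prior, probe choice, a filter on dim genes, scaling, the tested family, array weights, a replicate block and each array left out.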

Additional observations from a re-analysis of the deposited data

How the results depend on the processing

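Over all genes, 956 passed the threshold in limma, against 500 with the unmoderated test, 1639 with an intensity-dependent prior, 343 with the replicate block and 358 to 592 with 1 array left out. With each array centred on its median the split was 434 higher and 516 lower, against 555 and 401, and for the 173 genes of the pathway lists 8 higher and 14 lower, against 12 and 10. Of the 9 measured genes 1 passed; 3 passed with the intensity-dependent prior, 2 without the dimmest 25% of genes, with quantile normalization or with array weights, 0 with limma's replicate block or the unmoderated test (2 in the main setting at an unadjusted p of 0.05), and 0 to 1 with 1 array left out. The pathway lists held 22 called genes, against 13 with the unmoderated test, 37 with the intensity-dependent prior, 10 with the replicate block and 8 to 16 with 1 array left out. Leaving out an array leaves fewer samples by construction; the cause of the other differences was not tested.

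The sign of Trib3 turned to -0.02 with centred arrays and -0.012 with array weights, and ran from -0.058 to 0.10 with 1 array left out. That of Psat1 turned to -0.005 with the mean of its probes and -0.02 with centred arrays, and ran from -0.025 to 0.055 with 1 array left out. Both stayed far from the threshold. Of 22 named list genes past the threshold, 7 kept their call under all 15 alternatives (Gpt2, Slc7a5, Slc6a9, Atf3, Gadd45a, Bnip3 and Egln3). Replicate numbers are shared by both groups, but same-numbered arrays deviated together with correlations of 0.02, -0.14 and -0.07, so the numbers were not taken to pair them; with the replicate block the adjusted p of Ddit4 was 0.0579, that of Slc38a2 0.0505 and that of Slc3a2 0.0810.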

Other observations

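Because Ddit4 is also induced by hypoxia, glucocorticoids and p53, genes of those responses were read beside it. Of 13 hypoxia-induced genes 1 rose, 1 fell and 11 did not pass, and 9 of the 13 changes were negative (median log2 fold change -0.09). This is 15.4% called, against 7.16% of all genes, and 7 of 13 passed at an unadjusted p of 0.05, against 21.1% of all genes. Egln3, an oxygen-sensing prolyl hydroxylase, rose 1.86-fold (adjusted p = 0.00350), and Bnip3, a mitophagy receptor, fell 1.49-fold (adjusted p = 0.00874). With each array centred on its median, 1 rose and 3 fell. Of 12 glucocorticoid-induced genes 2 rose, 1 fell and 9 did not pass (25% called, and 4 at an unadjusted p of 0.05), and with centred arrays none rose and 2 fell in limma. Fkbp5, a co-chaperone of the glucocorticoid receptor, rose 1.33-fold (adjusted p = 0.0365), Klf9, a zinc finger factor, rose 1.29-fold (adjusted p = 0.0490), and Sgk1, a serum- and glucocorticoid-regulated kinase, fell 1.36-fold (adjusted p = 0.0151). The calls of Fkbp5 and Klf9 were lost without any one array (0.0580 to 0.112 and 0.0616 to 0.159) and with centred arrays, and that of Sgk1 was lost without any one of control 3 and the fibrinogen arrays (highest adjusted p = 0.0680). None of the 12 genes measured in the p53 target list passed in limma. At an unadjusted p of 0.05, 6 of them passed, against 21.1% of all genes. Plk2, a stress-induced kinase, and Mdm2, the ligase that degrades p53, had the smallest p (log2 fold changes 0.31 and -0.34, adjusted p = 0.0624 and 0.0969). That list leaves out Gadd45a and Sesn1, also p53 targets, which were counted in other lists. Gadd45a fell 1.99-fold (adjusted p = 0.00166 in limma), and Sesn1 did not pass (log2 fold change -0.23, adjusted p = 0.380).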
